A study of Mus musculus with 6 samples.

Results

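The 9 genes described here mark the oligodendrocyte lineage: the transcription factors *Olig1*, *Olig2* and *Sox10*, the receptors *Pdgfra* and *Gpr17*, and the myelin genes *Cnp*, *Mbp*, *Mag* and *Mog*. They were given as a list of symbols, matched to Ensembl identifiers through GENCODE, and are 9 of the 50686 genes in the count files. RNASeq was available for 2 cultures of NSC, wild-type neural stem cells, and for 2 cultures labelled NSC Bmi1Over, which carried the *STOPFloxBmi1;NestinCre* transgenes. In these mice a Cre recombinase driven by *Nestin*, a gene of neural progenitors, is meant to remove a stop cassette ahead of a *Bmi1* transgene. *Bmi1* encodes a subunit of PRC1, a Polycomb repressive complex that silences genes. Both groups were primary cultures from the subventricular zone of E16.5 mouse embryos, grown with EGF and FGF. H3K27me3, the histone mark laid down by a different Polycomb complex, PRC2, was measured by ChIPSeq. For it the authors kept 1 library of each group and set aside the other on its quality. The mGIC samples were not analysed here. The study describes the cultures as biological replicates without saying how embryos were assigned to them. The p-values of the fit reported measure the spread between these cultures. In some alternative fits they did not follow the spread of the single gene, as given for *Gpr17*.

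Oligodendrocytes are the myelinating cells of the central nervous system. They arise from neural stem cells through oligodendrocyte precursors, which divide in response to PDGF, and through a committed stage at which *Gpr17* is switched on for a short time. *Olig1* and *Olig2* act from the progenitor stage onwards, *Sox10* drives the genes of the differentiating cell, and the myelin proteins come last. EGF and FGF hold cultured progenitors in division and favour *Olig2*.

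Between 18112100 and 61353076 reads were counted on genes per library, and both the lowest and the highest total came from the libraries labelled NSC Bmi1Over. The share of reads left unmapped was 11.2% to 17.6%. *Bmi1*, the gene targeted by the transgene, had 133 and 123 CPM in NSC against 119 and 112 CPM in the libraries labelled NSC Bmi1Over, where CPM are counts scaled to the normalised library size. Its log2 fold change was −0.15 (SE 0.12), with an adjusted p of 0.463 (edgeR's quasi-likelihood test, Benjamini-Hochberg adjustment over all tested genes). The counts on this gene were thus not higher in the libraries labelled NSC Bmi1Over. Whether RNA of the transgene is counted on this gene was not tested, and every direction given here is between libraries as labelled. Neural stem cell markers summed to between 6693 and 7501 CPM, of which *Slc1a3* had 1837 to 3060 CPM. The 8 microglial markers summed to at most 3.09 CPM, the 8 endothelial and mural markers to at most 5.77 CPM and the 7 mesenchymal markers to at most 1.83 CPM.

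The levels of the 9 genes ran from *Olig1* down to *Mag*. In CPM per kb of exon, a scale on which genes of different length can be compared, the mean of the 4 libraries was 588 for *Olig1* and 370 for *Olig2*. It was 17.8 for *Cnp*, 3.07 for *Pdgfra*, 1.56 for *Gpr17* and 0.738 for *Sox10*. The lowest means were those of *Mbp* at 0.157, *Mog* at 0.0607 and *Mag* at 0.0129 CPM per kb. The libraries of *Olig1* (471 to 656 CPM per kb) lay above all of those of *Olig2* (326 to 397), which lay above *Cnp* (13.1 to 25.1), which lay above *Pdgfra* (1.64 to 4.43). From *Pdgfra* to *Mog*, each gene overlapped the next in this order. The cultures thus held abundant RNA of the early *Olig* genes and little of *Mbp*, *Mag* and *Mog*, and in bulk cultures such as these, fewer cells of a type and less RNA per cell cannot be told apart.

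**Figure D1:**
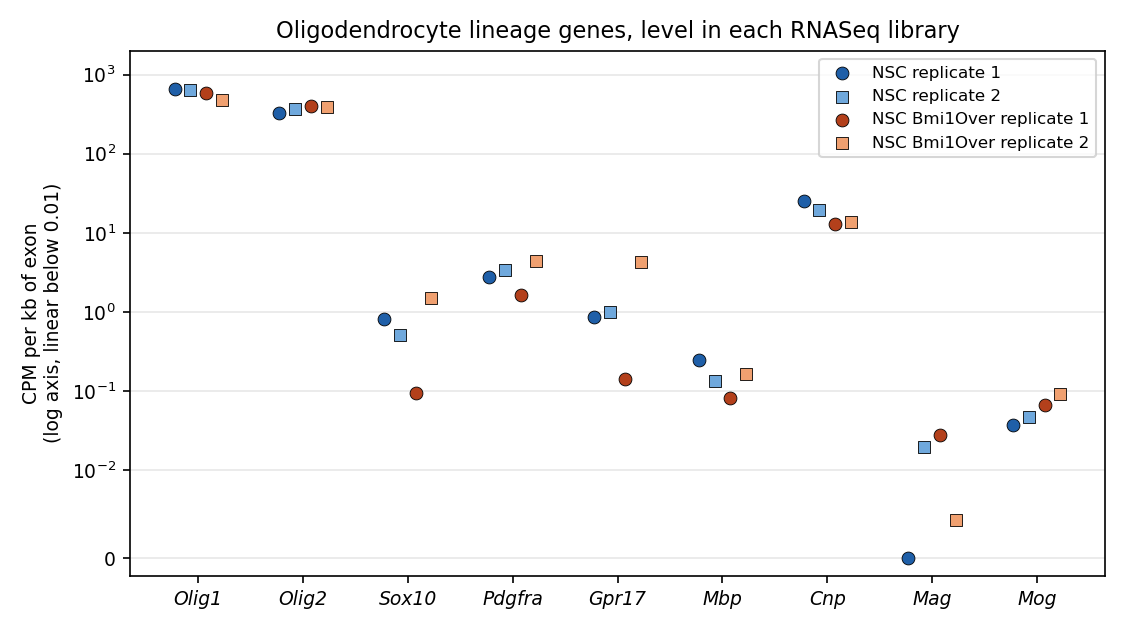
Level of each of the 9 genes in each RNASeq library, in CPM per kb of exon on a log axis that is linear below 0.01. *Olig1* and *Olig2* sit between 326 and 656 CPM per kb in every library, while the *Sox10* and *Gpr17* points of the 2 libraries labelled NSC Bmi1Over lie far apart, one above and one below both NSC points.

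The comparison of the libraries labelled NSC Bmi1Over with NSC asked which genes differ when *Bmi1* is meant to be overexpressed. *Cnp* fell, and no other of the 9 genes passed the test. 7 of the 9 had enough reads to be tested, *Mag* and *Mog* being the exceptions. 1 of these 7 was called, against 2.15% of all tested genes (334 of 15521). Calls in which the libraries labelled NSC Bmi1Over were above NSC made up 2.03% of tested genes (315) and calls in the direction of *Cnp* 0.122% (19). In this fit none of the 7 was called higher, nor by DESeq2 on the same genes, and at an unadjusted p under 0.05 the count was also 1, *Cnp*, against 24.2% of all tested genes. With no filter on low counts edgeR called *Gpr17* higher (log2 fold change 1.33, adjusted p 6.84e-08), in a fit that called 8.25% of all genes tested. Its standard error there was 0.21, against 0.91 in the fit reported on the same reads. That p thus did not follow the gap between the 2 libraries labelled NSC Bmi1Over (0.742 and 22.1 CPM). Fits that left out a library called further genes, as given for each gene. The median log2 fold change of the 7 was 0.00, and that of all tested genes −0.01. The groups did not overlap for 3 of the 7 genes, against 59% of all tested genes. *Olig2* was the gene above NSC, against 29%, and *Olig1* and *Cnp* were below, against 30%. With library size alone in place of the TMM scaling, the call set became 532 genes, of which 345 were higher, and the median over all tested genes moved to a log2 fold change of −0.17. With 2 cultures a group, the smallest two-sided p of an exact permutation test on a single gene is 0.333.

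*Olig1* and *Olig2* encode basic helix-loop-helix factors and are neighbours on chromosome 16, *Olig2* at chr16:91225457-91228677 and *Olig1* at chr16:91269772-91271933, both on the plus strand of mm10. *Olig1* had 1418 and 1363 CPM in NSC against 1283 and 1019 CPM in the libraries labelled NSC Bmi1Over. Both libraries labelled NSC Bmi1Over were below both NSC libraries, but the difference (log2 fold change −0.27, SE 0.20) did not pass the test, with an adjusted p of 0.418 in edgeR's test. *Olig2* had 824 and 930 CPM in NSC against 1006 and 981 CPM in the libraries labelled NSC Bmi1Over. Its order was the opposite, with both libraries labelled NSC Bmi1Over above NSC, and its log2 fold change of 0.18 (SE 0.18) did not pass either, with an adjusted p of 0.548. Neither gene was called under any of the 12 alternatives, and both kept their sign in all of them. *Olig1* shares 7.26% of its exon bases with *Gm15966* on the other strand, which held 0, 0, 0 and 2 reads.

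*Cnp*, which encodes the myelin enzyme CNPase and is on already in precursors, lies at chr11:100574904-100591729 on the plus strand. It had 2884 and 1796 reads in NSC against 836 and 2834 reads in the libraries labelled NSC Bmi1Over, or 91.3 and 71.0 CPM against 47.7 and 49.5 CPM. The libraries labelled NSC Bmi1Over were close to each other and below both NSC libraries, which differed more. The mean was 81.1 ± 14.4 CPM in NSC and 48.6 ± 1.30 CPM in the libraries labelled NSC Bmi1Over (SD, n = 2 each), and the log2 fold change was −0.74 (SE 0.15), with an adjusted p of 0.0458 in edgeR's quasi-likelihood test. The call was close to the threshold of 0.05. It held in 7 of 12 alternatives, and its lowest adjusted p came from the fit with no filter. Over all 12 the log2 fold change stayed between −0.91 and −0.55 and the adjusted p ran from 2.59e-05 to 0.344. The highest of these came without NSC replicate 1, the library with the most *Cnp*, and without NSC Bmi1Over replicate 2 the adjusted p was 0.0705.

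Exons of *Cnp* share 154 bp, 4.23% of its exon bases, with *Dnajc7*, a chaperone gene on the other strand. As the counts used here did not take strand into account, reads on these bases could not be assigned. In the sum of the stranded columns, *Cnp* had 143% of the unstranded count over the 4 libraries, its log2 fold change was −0.56, and the adjusted p was 0.0695. *Dnajc7* had 145 and 143 CPM in NSC against 143 and 135 CPM in the libraries labelled NSC Bmi1Over, with a log2 fold change of −0.05 and an adjusted p of 0.810 in edgeR's test.

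*Gpr17*, *Sox10* and *Pdgfra* did not pass the test, and for all 3 the 2 libraries labelled NSC Bmi1Over lay on either side of NSC. *Gpr17*, a receptor of committed precursors at chr18:31942997-31949636 on the minus strand, had 140 and 130 reads in NSC against 13 and 1265 in the libraries labelled NSC Bmi1Over. In CPM these were 4.43 and 5.14 against 0.742 and 22.1. NSC replicates were close, while NSC Bmi1Over replicate 1 was the lowest library and replicate 2 the highest. The log2 fold change of 1.34 had a standard error of 0.91 and an adjusted p of 0.387 in edgeR's test.

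*Sox10*, at chr15:79154908-79165240 on the minus strand, had 79 and 40 reads in NSC against 5 and 265 in the libraries labelled NSC Bmi1Over, that is 2.50 and 1.58 CPM against 0.285 and 4.63 CPM. The lowest and the highest library were the same as for *Gpr17*. Its log2 fold change was 0.43 (SE 0.75), with an adjusted p of 0.742. *Pdgfra*, the PDGF receptor of precursors at chr5:75152292-75198215 on the plus strand, had 27.8 and 34.3 CPM in NSC against 16.4 and 44.4 CPM in the libraries labelled NSC Bmi1Over. It was spread in the same order over a narrower range, and its log2 fold change was 0.00 (SE 0.35).

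Within the libraries labelled NSC Bmi1Over, *Gpr17* was 29.8-fold higher in replicate 2 than in replicate 1 (95% exact interval 17.4 to 56.1, covering counting error only). *Sox10* was 16.2-fold higher (6.87 to 50.4), *Pdgfra* 2.70-fold (2.39 to 3.07) and *Mbp* 2.02-fold (1.09 to 4.07). On the log2(CPM + 0.1) scale, *Gpr17* had the widest difference between these 2 libraries of all 15521 tested genes, and *Sox10* the 3rd widest. In NSC the ratio of replicate 2 to replicate 1 was 1.16 for *Gpr17* (0.906 to 1.48), 0.632 for *Sox10* (0.421 to 0.936) and 1.23 for *Pdgfra* (1.12 to 1.36). The *Olig* genes and *Cnp* did not show such a spread, with ratios of 0.794 for *Olig1*, 0.976 for *Olig2* and 1.04 for *Cnp* between the libraries labelled NSC Bmi1Over.

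2 of the 7 tested genes, *Gpr17* and *Sox10*, were more than 4-fold higher in NSC Bmi1Over replicate 2 than in replicate 1 on that scale, against 0.238% of all tested genes. More than 2-fold higher were 3 of the 7, against 2.09% of all tested genes, and none was more than 2-fold lower, against 0.767%. These are descriptions of 2 libraries. NSC Bmi1Over replicate 2 was the deepest library and replicate 1 the shallowest, and the part of depth in this was not tested. Schwann cells and neural crest also express *Sox10*, and the 8 markers of those cells, *Sox10* included, summed to 102 and 123 CPM in NSC against 162 and 188 CPM in the libraries labelled NSC Bmi1Over, in order of replicate. *Foxd3*, a factor of early crest, had no read in any library. Without *Pmp22* the sums of the other 7 were 35.4 and 27.9 CPM in NSC and 22.1 and 31.7 CPM in NSC Bmi1Over. *Pmp22* itself rose from 66.4 and 95.2 CPM to 139 and 156 CPM (log2 fold change 0.87, adjusted p 0.0483 in edgeR's test). This call held in 8 of 12 alternatives. It was lost with DESeq2's size factors, with a filter of 1 CPM in 2 libraries, without NSC replicate 1 and without NSC Bmi1Over replicate 2. The part of *Pmp22* in the *Sox10* values was not tested. *Egr2*, a factor of myelinating Schwann cells named after its values were seen, had 16.6 and 9.29 CPM in NSC against 4.62 and 6.19 CPM (log2 fold change −1.24, adjusted p 0.0639 in edgeR's test), and DESeq2 called it lower. *Lims2*, which shares 3.62% of the exon bases of *Gpr17* from the other strand, had 14 and 6 reads in NSC against 1 and 62 in the libraries labelled NSC Bmi1Over.

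**Figure D2:**
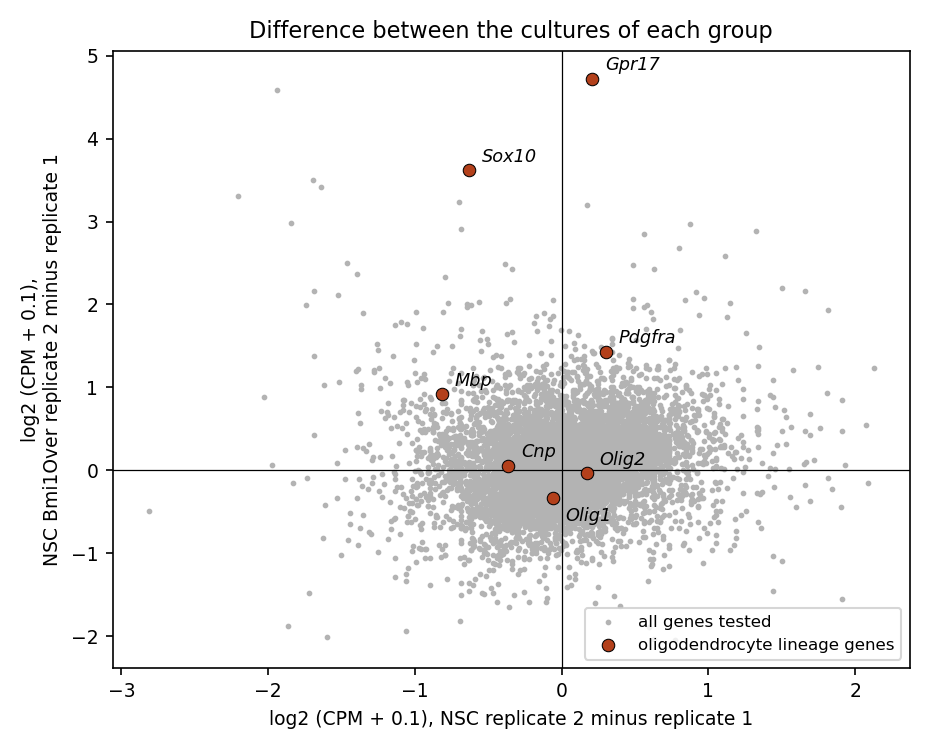
Difference between the 2 libraries of each group on the log2(CPM + 0.1) scale, NSC on the x axis and NSC Bmi1Over on the y axis, with 1 point per tested gene and the lineage genes in red. *Gpr17* (4.72) lies highest of all genes on the y axis and *Sox10* (3.62) is near it, while *Olig1*, *Olig2* and *Cnp* lie within the cloud.

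Leaving out one library moved these genes across 0. Without NSC Bmi1Over replicate 1, *Gpr17* had a log2 fold change of 2.21 and was called (adjusted p 0.000653), and without NSC Bmi1Over replicate 2 it had −2.68 and was called in the other direction (adjusted p 0.0179), both in edgeR's test. These fits called 15.6% and 1.45% of all genes tested, and in each the remaining library is assumed to vary like the NSC libraries. *Pdgfra* did the same, at 0.51 (adjusted p 0.0454) and −0.92 (adjusted p 0.0461). *Sox10* was called without NSC Bmi1Over replicate 1, at 1.16 (adjusted p 0.0367), and at −2.83 was not called without replicate 2 (adjusted p 0.0679). *Gpr17* was also called higher without NSC replicate 1 (log2 fold change 1.22) and without NSC replicate 2 (1.42). In both fits the 2 libraries labelled NSC Bmi1Over lay on either side of the NSC library left. The standard error was 0.32 in each, against 0.91 with all 4 libraries. These calls thus did not follow the gap between those 2 libraries. The direction of the 3 genes between groups thus rested on which library labelled NSC Bmi1Over was used.

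**Figure D3:**
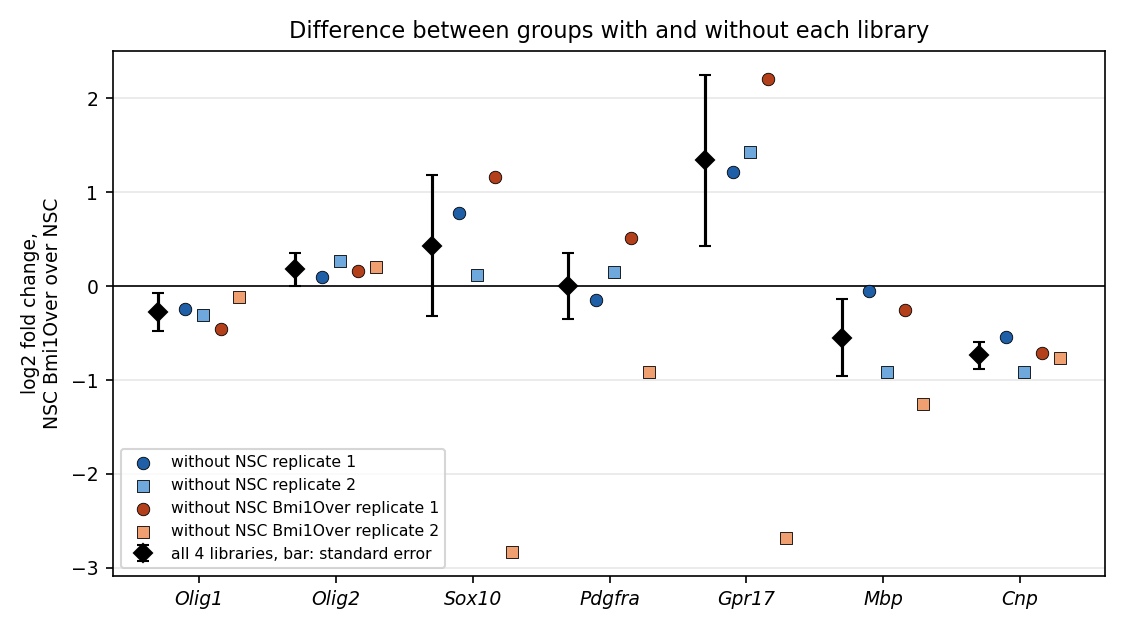
Log2 fold change between the libraries labelled NSC Bmi1Over and NSC for the 7 tested genes, with all 4 libraries (black, bar: standard error) and with each library left out in turn. The points without NSC Bmi1Over replicate 2 lie at −2.68 for *Gpr17* and −2.83 for *Sox10*, and those of *Cnp* stay between −0.91 and −0.55.

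*Mbp*, *Mag* and *Mog*, the genes of mature myelin, were near the limit of what these libraries could count. *Mbp*, myelin basic protein, spans chr18:82475146-82585637 with 12 annotated start sites, part of which belong to transcripts made outside myelin, and had 66, 29, 12 and 79 reads. In CPM these were 2.09 and 1.15 in NSC against 0.685 and 1.38 in the libraries labelled NSC Bmi1Over, which overlapped. The log2 fold change was −0.55 (SE 0.41), with an adjusted p of 0.431 in edgeR's test, and moved from −0.0557 without NSC replicate 1 to −1.25 without NSC Bmi1Over replicate 2, uncalled in both. *Mag*, a myelin adhesion protein at chr7:30899176-30914873, had 0 and 2 reads in NSC against 2 and 1 in the libraries labelled NSC Bmi1Over. *Mog*, a protein of the outer myelin surface at chr17:37010743-37023398, had 2 and 2 reads against 2 and 9. With no filter, edgeR gave a log2 fold change of 0.23 (SE 1.81, adjusted p 0.955) for *Mag* and 0.98 (SE 1.06, adjusted p 0.731) for *Mog*, so that no difference was detectable at this depth.

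Other genes of the lineage were taken from lists of 14 genes of precursors, 12 of committed precursors, 17 of mature oligodendrocytes and 6 inhibitors of differentiation. Of these 49 genes 42 were tested and 3 were called, all higher in the libraries labelled NSC Bmi1Over, against 2.15% of all tested genes. Their median log2 fold change was 0.16. *Trf*, which encodes the iron carrier transferrin, had 2.56 and 3.12 CPM in NSC against 6.85 and 8.03 CPM in the libraries labelled NSC Bmi1Over (log2 fold change 1.40, adjusted p 0.0334 in edgeR's test). *Tcf7l2*, a transcription factor of the Wnt pathway, had 28.0 and 26.3 CPM against 43.4 and 40.9 CPM (log2 fold change 0.63, adjusted p 0.0451). For both the libraries of a group lay close together and the groups did not overlap. The call of *Trf* held in 11 of 12 alternatives and that of *Tcf7l2* in 8, and neither was called without NSC Bmi1Over replicate 2 (adjusted p 0.0627 and 0.0506). *Tcf7l2* was also not called with library size alone, without NSC replicate 1 or without NSC replicate 2.

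Among precursor genes, edgeR called 0 of 14 in the fit with all 4 libraries, while 7 had an unadjusted p under 0.05, against 24.2% of all tested genes, and DESeq2 called 5 (3 higher and 2 lower), against 9.64%. EdgeR called 7 without a filter (against 8.25% of all genes tested in that fit), 6 without NSC Bmi1Over replicate 1 (15.6%), 4 without NSC replicate 2 (8.93%) and 1 without NSC Bmi1Over replicate 2 (1.45%). The highest levels per length were those of *Ptprz1*, a receptor phosphatase, at 243 CPM per kb, and *Sulf2*, a heparan sulphatase, at 196. *Sulf2* had 663 and 914 CPM in NSC against 1364 and 1670 CPM in the libraries labelled NSC Bmi1Over, with an adjusted p of 0.0651. *Sox8*, a relative of *Sox10*, followed at 59.4 CPM per kb and the proteoglycan gene *Cspg5* at 54.2. Of the committed precursor genes 9 were tested, with *Tcf7l2* called, and the highest levels were 110 CPM per kb for the kinase gene *Fyn*, 17.6 for *Tns3*, 14.5 for the deacetylase gene *Sirt2* and 8.52 for the calcium channel gene *Itpr2*. Of the mature genes 13 were tested, with 2 called, *Trf* among them, and *Car2*, carbonic anhydrase, stood at 29.2 CPM per kb, ahead of *Gjc3* at 3.19, *Plekhh1* at 2.61 and *Ugt8a*, the enzyme of galactolipid synthesis, at 2.31. None of the 6 inhibitors was called by edgeR in the fit with all 4 libraries or by DESeq2, and 1, *Hes5*, had an unadjusted p under 0.05, against 24.2% of all tested genes. *Hes5* was called lower by edgeR under other settings, among them no filter and without NSC replicate 2. The inhibitors had levels of 18.4 CPM per kb for the Notch target *Hes1*, 11.3 for *Lingo1* and 5.11 for *Hes5*, and with *Id2* between *Hes1* and *Lingo1*.

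The spread of *Gpr17* and *Sox10* between the libraries labelled NSC Bmi1Over was seen in few of these genes. On the log2(CPM + 0.1) scale, which understates the change of low genes, 3 of the 42 tested were more than 2-fold higher in replicate 2 than in replicate 1, against 2.09% of all tested genes, and none was more than 4-fold higher. They are named here after their values were seen: the precursor gene *Pcdh15* (10.8 and 10.4 CPM in NSC, 3.65 and 13.6 CPM in the libraries labelled NSC Bmi1Over), the repressor gene *Zfp488* (4.21 and 3.60 against 2.05 and 4.53 CPM) and *Gal3st1*, the enzyme of sulphatide synthesis (0.696 and 0.632 against 0.114 and 0.699 CPM).

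**Figure D4:**
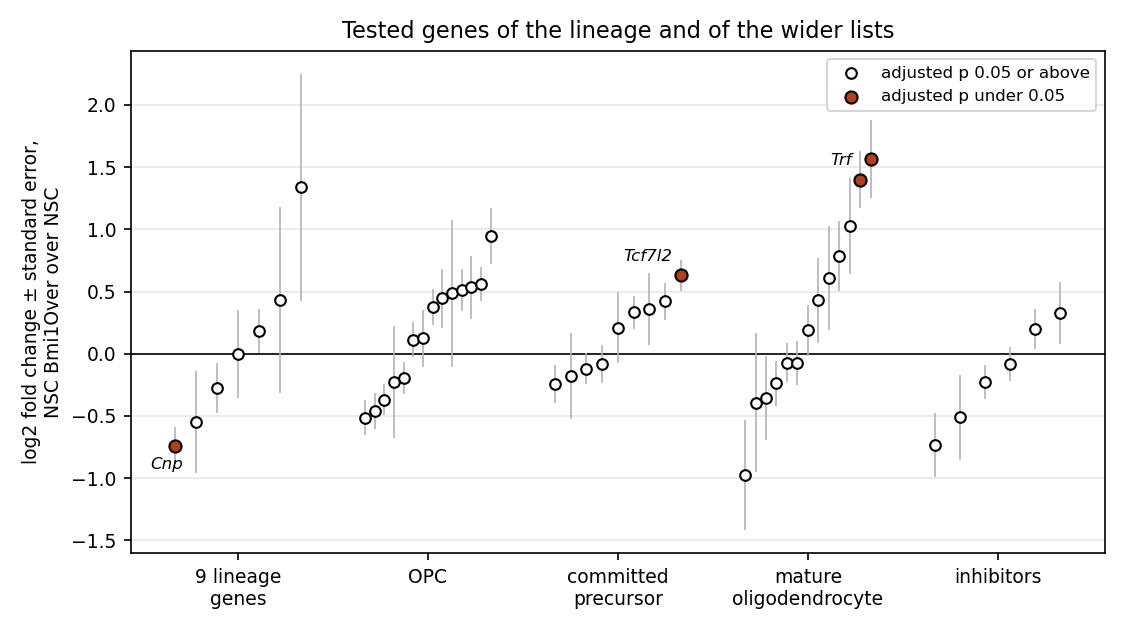
Log2 fold change with its standard error for the tested lineage genes and the tested genes of the 4 wider lists, sorted within each list, with genes at an adjusted p under 0.05 filled. *Cnp* at −0.74 is the only filled point below 0, and *Tcf7l2* and *Trf* lie at 0.63 and 1.40.

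H3K27me3 was compared through the promoter peaks. In neither list did an H3K27me3 peak come within 5 kb of a start site of any of the 9 genes. Of all protein-coding genes 8.83% had such a peak in the NSC list and 4.38% in the NSC Bmi1Over list, so that 0 of 9 is near the background share in both lists and does not set these genes apart. None had a peak in its gene body either. The peaks nearest to a start site were 58.1 kb from *Mag*, 68.0 kb from *Mbp* and 74.9 kb from *Pdgfra* in the NSC list. In the NSC Bmi1Over list they were 67.4 kb from *Mbp*, 126.5 kb from *Mag* and 174.7 kb from *Mog*. *Olig1* and *Olig2* were 1229 and 1273 kb from the nearest NSC peak, and *Gpr17* 5267 kb. The lists held 12982 peaks for NSC and 6810 for NSC Bmi1Over, and come from 1 library each, so the difference in number has no replicate check and no test was made. The study's methods give read totals for both replicates of each group, the largest in NSC, but do not say which replicate was kept, so that depth and group cannot be told apart in the number of peaks.

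The 9 genes ranged widely in expression, from *Olig1* to *Mag*. Over all protein-coding genes, the share with a promoter peak in the NSC list was 2.63% at a mean of 100 CPM and above, 7.56% from 1 to 100 CPM and 11.8% below 1 CPM. In the NSC Bmi1Over list these shares were 1.06%, 2.95% and 6.73%. Among the 49 wider lineage genes, 14 had a promoter peak in the NSC list and 7 in the NSC Bmi1Over list. The inhibitors *Id4*, *Hes1*, *Lingo1* and *Gpr37* had one in both lists, as did *Bmp4*, *Ugt8a* and *Fa2h*. *Matn4*, *Pcdh15*, *Megf11*, *Nkx6-2* and *Mal* were among those with one in the NSC list alone. *Trf* and *Tcf7l2* had none in either list.

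**Figure D5:**
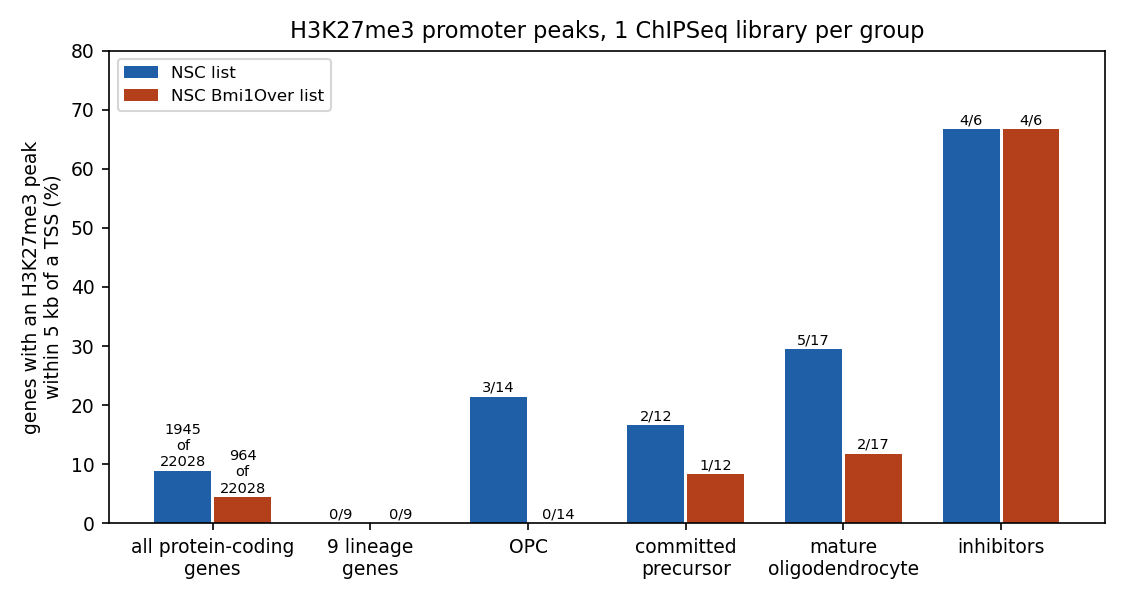
Share of genes with an H3K27me3 peak within 5 kb of a start site, in percent, for all protein-coding genes, the 9 lineage genes and the 4 wider lists, with the counts above the bars and 1 ChIPSeq library per group. The bars of the 9 lineage genes are at 0 of 9 in both lists, beside 8.83% and 4.38% of all protein-coding genes.

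The promoters are printed to show how far the lineage genes differ in CpG content, a feature of many promoters that Polycomb marks. RefSeq promoters, here 250 bases before to 50 bases after a start site in GRCm38.p6, were matched for 5 of the 9 genes: *Olig2*, *Pdgfra*, *Cnp*, *Mag* and *Mog*. *Olig2* is shown as the most highly expressed of them. *Cnp*, the called gene, and *Mog*, with the fewest CpGs, were chosen after their values were seen. Each is written 5′ to 3′ on the strand of the gene, with every CpG in capitals.
Olig2, chr16:91225300-91225599, plus strand: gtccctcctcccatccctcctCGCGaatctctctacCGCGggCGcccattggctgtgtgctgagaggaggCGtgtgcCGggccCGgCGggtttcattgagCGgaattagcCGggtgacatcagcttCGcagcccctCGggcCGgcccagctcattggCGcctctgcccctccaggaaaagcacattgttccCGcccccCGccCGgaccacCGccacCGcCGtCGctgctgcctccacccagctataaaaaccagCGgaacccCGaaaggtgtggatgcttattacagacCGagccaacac
Cnp, chr11:100574689-100574988, plus strand: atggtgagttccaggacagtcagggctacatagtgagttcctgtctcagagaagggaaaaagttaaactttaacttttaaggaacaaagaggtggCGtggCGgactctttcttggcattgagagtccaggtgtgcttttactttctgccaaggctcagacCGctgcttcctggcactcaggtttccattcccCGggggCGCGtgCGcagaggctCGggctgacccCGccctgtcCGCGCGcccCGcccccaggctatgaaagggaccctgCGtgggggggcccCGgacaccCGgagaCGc
Mog, chr17:37023349-37023648, minus strand: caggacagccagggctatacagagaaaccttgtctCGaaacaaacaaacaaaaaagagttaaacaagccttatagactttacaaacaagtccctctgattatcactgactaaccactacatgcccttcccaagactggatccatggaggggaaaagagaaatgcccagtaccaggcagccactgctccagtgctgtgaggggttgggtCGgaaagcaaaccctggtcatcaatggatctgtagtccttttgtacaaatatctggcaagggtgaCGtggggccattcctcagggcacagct

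The *Olig2* window held 25 CpGs, and 23% of protein-coding promoters of the same length held more. *Cnp* had 17, *Mag* 6, *Pdgfra* 5 and *Mog* 3. The median was 17 in protein-coding promoters with a peak in the NSC list, 18 in those with a peak in the NSC Bmi1Over list and 14 in those without a peak. *Olig2* and *Cnp* thus lay above the median of the promoters without a peak, and the other genes below it. The letters CAGCTG, a form of the E-box that helix-loop-helix factors bind, ACAAAG and ACAATG, forms of the SOX motif, and TATAAA were searched on both strands. They were in 15.2%, 16.7%, 10.7% and 12.9% of protein-coding promoters. *Olig2* held 1 ACAATG and 1 TATAAA, *Cnp* and *Mag* held 1 ACAAAG each, and *Pdgfra* and *Mog* held none of the 4. Such matches are letters in a window and not sites of binding.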

How the data were processed

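RNASeq came from 2 NSC cultures and 2 cultures labelled NSC Bmi1Over, and ChIPSeq for H3K27me3 from a single library per group. The authors trimmed reads with Trim Galore, aligned RNASeq reads to mm10 with STAR and deposited raw counts per gene, of which the unstranded column was used. Reads not on a gene (27.8% to 34.1%) were left out. For ChIPSeq, per the labels, Bowtie2 2.3.4 and MACS2 were used, and the authors called broad peaks per library and deposited for each a fold enrichment (a ratio to background), its p-value and q-value as −log10, and a display score, which was not used. Peak positions served for all results, and peak numbers ran without a gap.

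Of 50686 gene identifiers 50462 matched GENCODE vM21. Counts of the 15521 genes that passed filterByExpr were scaled by TMM and tested by edgeR 4.0.16 in R 4.3.3 (quasi-likelihood, group only). A gene was called when its p, adjusted over all tested genes by the Benjamini-Hochberg method, was under 0.05. The biological coefficient of variation was 12.9%, and CPM use TMM library sizes. Differences within a group used a pseudocount of 0.1 CPM. The edgeR fit was tested on simulated counts, and the other steps were not. A promoter peak overlapped 5 kb either side of any start site by at least 1 bp (Python 3.11.15). Alternatives were DESeq2 1.42.0, its size factors, library size alone, 2 other filters, the stranded columns, protein-coding genes, the replicate number as a block, each culture left out, and stricter peaks, windows and overlaps.

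The 9 genes and all lists were chosen with earlier results of these data known. Named by rule were the 9 genes, *Bmi1*, the called genes of the wider lists with the 4 highest per kb of each, the called marker genes, and the marker with the highest mean CPM over the 4 libraries, which is not corrected for length. Promoters of up to 5 of the genes were to be printed, first those with a peak and then the most highly expressed one without, and none on chromosome 18. Some genes of the lists are counted but not reported here by name.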

Additional observations from a re-analysis of the deposited data

How the results depend on the processing

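The number of called genes was 334 in the fit reported, 1496 with DESeq2's Wald test, 532 with library size alone, 2356 with no filter on low counts and 3459 with the replicate block, and ran from 176 to 2546 when each library was left out. As shares of all genes tested these were 2.15%, 9.64%, 3.43%, 8.25%, 22.3% and 1.11% to 15.6%. Of the 9 lineage genes, 1 was called in the fit reported, 2 with no filter (*Cnp* and *Gpr17*), 0 with DESeq2's size factors, with a filter of 1 CPM in 2 libraries and with the stranded columns, and 1 to 4 when each library was left out. Of the wider lists 3 were called, against 8 with DESeq2's Wald test, 12 with no filter, 16 with the replicate block and 1 to 11 when each library was left out. The median log2 fold change of the lineage genes ran from −0.92 (without NSC Bmi1Over replicate 2) to 0.16 over the fits without a library. *Pdgfra*, at 0.00, took the other sign with DESeq2's Wald test (−0.0192), library size alone (−0.16), no filter (−0.0165), the stranded columns (−0.00658) and the replicate block (−0.15), and ran from −0.92 to 0.51 when each library was left out. *Sox10* ran from −2.83 to 1.16 and *Gpr17* from −2.68 to 2.21. The cause was not tested. The replicate numbers are not said to mark a shared litter or day, and deviations of same-numbered cultures correlated at 0.179 across genes over 2 pairs, too few to decide whether the numbers pair the samples, so the block was kept as an alternative. With the block, which called 22.3% of all tested genes, edgeR also called 9 of the 14 precursor genes, 4 of the 12 neural stem cell markers (near that share) and 1 of the 6 inhibitors, *Hes5*. Of the 96 values of single genes under an alternative, 76 kept their sign and their side of the threshold, 9 changed sign, 8 became called (2 of them with a changed sign) and 5 were no longer called. The 9 lineage genes were also without a promoter peak in a window of 10 kb, the other peak alternatives being stricter and unable to add one. At 0 to 9 reads, *Mag* and *Mog* were tested with no filter alone, with standard errors of 1.81 and 1.06.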

Other observations

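Among markers of other neural cells, 2 genes were called, 1 higher and 1 lower. Of all tested genes 2.15% were called, 2.03% higher and 0.122% lower. *Syt1*, which encodes a calcium sensor of synaptic vesicles, had 9.12 and 27.2 CPM in NSC and rose to 66.4 and 95.8 CPM in the libraries labelled NSC Bmi1Over (log2 fold change 2.18, adjusted p 0.0428 in edgeR's test). It was 1 of 7 tested neuron markers, the median of which was −0.21, and *Neurod6* had no read in any library. *Aldh1l1*, a folate enzyme used as an astrocyte marker, fell from 122 and 94.1 CPM to 65.9 and 53.2 CPM (log2 fold change −0.86, adjusted p 0.0440). It was 1 of 8 tested astrocyte markers, the median of which was −0.17, with *Slc1a2* at 196 to 316 CPM and *Gfap* at most 0.769 CPM. *Fgfr3* (log2 fold change −0.88, adjusted p 0.0569) and *Aldoc* (−0.80, adjusted p 0.0508), named after their values were seen, did not pass edgeR's test, but were called lower along with *Aldh1l1* by DESeq2, with library size alone and with no filter. The calls of *Syt1* and *Aldh1l1* both held in 10 of 12 alternatives, and neither gene was called without NSC Bmi1Over replicate 2. *Syt1* was also not called with DESeq2's size factors, and *Aldh1l1* not without NSC replicate 1. Of the 12 neural stem cell markers edgeR called 0 in the fit with all 4 libraries, with 2 at an unadjusted p under 0.05, against 24.2% of all tested genes, and DESeq2 called 1, *Slc1a3*, against 9.64%. EdgeR called 1 of them, *Hes5*, lower with no filter, against 8.25% of all genes tested, and without NSC replicate 2, against 8.93%.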
